A study of Equus caballus with 2 samples.

Results

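Of the 19257 sequence tags that RNA-seq of stallion sperm gave in the horse genome, 596 are described here. All were at least 50 bp long, lay on ECA1 to ECA31 or ECAX and consisted of repeat-masked bases alone. They were selected on 3 properties, namely a length of at least 50 bp, a sequence written wholly in lower case (which marks bases that repeat masking recognised in the genome assembly) and an average coverage (AC, the normalized depth of reads over the tag) under 100. They made up 3.09% of all tags and 3.06% of their bases. Weighted by AC they made up 0.0698% of the bases, a share that the limit on AC kept low in advance. They were also 7.13% of the 8357 tags of at least 50 bp with AC under 100 on these chromosomes. Total RNA came from fresh ejaculated sperm of 2 reproductively normal stallions, which formed the single group, purified from somatic cells and immature sperm by density gradient centrifugation. The RNA was sequenced as single reads of 50 bases on the SOLiD platform and aligned with the EcuCab2 assembly. The deposited table holds 1 AC for each tag. For tags looked up among the values per stallion in the study's supplement, the deposited AC was the higher of the 2 and not a mean. Whether this holds for all tags was not checked. AC has no error here, and the spread between the stallions was not analysed.

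Masked repeats of mammalian genomes are mostly copies of LINEs, SINEs, endogenous retroviruses and DNA transposons, together with simple tandem repeats and pseudogenes of abundant small RNAs. The small RNAs among them, such as the 7SK regulator of transcription elongation, the spliceosomal U2, U4 and U6 RNAs and the tRNAs, have many non-functional copies in the genome that are thought to have arisen by reverse transcription. A read of such an RNA can match many of these copies almost equally well. No repeat annotation of the assembly was used here. Families are therefore named only where a member resembled a deposited tag of a known RNA, and the other families are described by their sequence.

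The sequences of the RNA-like members are shown first, since their median AC was above that of the other members. Coordinates are those of EcuCab2, and each sequence is written 5′ to 3′ on the strand named. For the RNA-like members this is the one that reads as the RNA, unless stated otherwise. The strand of the reads themselves was not analysed here. For the 7SK-like members with the highest AC at the 5′ and at the 3′ end of the RNA, capitals mark the bases that differ from the abundant 7SK tag on ECA20.
7SK-like 5′ stretch, chr17:50412728-50412874, minus strand: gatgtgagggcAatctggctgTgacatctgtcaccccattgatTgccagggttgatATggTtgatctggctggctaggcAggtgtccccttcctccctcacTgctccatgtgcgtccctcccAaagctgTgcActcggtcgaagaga
7SK-like 3′ stretch, chr19:30879429-30879553, minus strand: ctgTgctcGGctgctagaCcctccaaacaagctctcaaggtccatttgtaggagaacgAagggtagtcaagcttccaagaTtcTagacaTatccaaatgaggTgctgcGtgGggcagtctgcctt

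Each held 11 differing bases and no gap within a local alignment, which left out the last base of the ECA17 sequence. The pair similar to U4, which is paired with U6 before the spliceosome is activated, shared 34 bases (capitals) near the start of the tag.
U4-like, chr16:68937388-68937471, plus strand: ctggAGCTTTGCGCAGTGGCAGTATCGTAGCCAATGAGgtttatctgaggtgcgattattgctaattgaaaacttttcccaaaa
U4-like, chr1:170278895-170278968, minus strand: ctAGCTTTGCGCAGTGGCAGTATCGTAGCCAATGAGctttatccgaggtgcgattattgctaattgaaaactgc

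In the members similar to U2, which pairs with the intron branch point, and to the 28S and 18S rRNAs of the ribosome, capitals again mark differing bases. The comparison was with the abundant tag that each matched best among the tags used for naming its family. Only substituted bases are marked, and the alignments of the 28S-like and 18S-like members also held gaps, which are not shown. The alignments were local, so any bases at the tag ends outside them were not compared and stay in lower case. The 18S-like sequence is written on the strand opposite to the one that reads as the RNA.
U2-like, chr11:20431608-20431742, plus strand: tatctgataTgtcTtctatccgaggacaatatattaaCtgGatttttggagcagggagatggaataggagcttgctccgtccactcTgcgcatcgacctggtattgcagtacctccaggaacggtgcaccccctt
28S-like, chr15:38288531-38288687, plus strand: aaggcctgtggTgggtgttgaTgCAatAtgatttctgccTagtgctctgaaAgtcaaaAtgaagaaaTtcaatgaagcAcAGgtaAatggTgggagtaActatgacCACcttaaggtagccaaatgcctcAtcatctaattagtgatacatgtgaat
18S-like, chr9:64155806-64155880, plus strand: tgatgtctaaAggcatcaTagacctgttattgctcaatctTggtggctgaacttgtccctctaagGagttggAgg

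The tRNA-like members were read on the minus strand, and capitals mark GTTCGA, letters of the T arm that many tRNA genes carry within their internal promoter.
tRNA-like, chrX:13713071-13713142, minus strand: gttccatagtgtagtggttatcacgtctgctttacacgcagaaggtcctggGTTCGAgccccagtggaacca
tRNA-like, chr12:19556894-19556966, minus strand: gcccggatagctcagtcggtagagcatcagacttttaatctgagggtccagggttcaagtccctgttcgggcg
tRNA-like, chr13:25597956-25598036, minus strand: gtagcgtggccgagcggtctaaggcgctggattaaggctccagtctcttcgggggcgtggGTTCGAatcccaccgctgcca

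The members had AC between 5.2 and 99.89, the median being 12.62 and the quartiles 9.81 and 19.1. Under AC 10 there were 159 members, from 10 to under 20 there were 295, from 20 to under 50 there were 108, and 34 members (5.70%) had AC of 50 or more. Most members thus lay far below the limit. Lengths lay between 50 and 1470 bp around a median of 82.5 bp, with 126 members of 50 to 59 bp and 163 of 60 to 79 bp. The Spearman correlation of AC with length was -0.0235 across the 596 tags, which is a description because tags of 1 table share libraries and normalization. Median AC was 12.9 in members of 50 to 59 bp and 12.995 in the 34 members of 300 bp or more. Just inside the coverage limit lay the members on ECAX (109 bp, AC 99.89), ECA15 (38288531 to 38288687, AC 98.5) and ECA17 (28883938 to 28884015, AC 93.96). Just outside it lay masked tags on ECA2 (59257874 to 59257930, AC 101.62), ECAX (123782598 to 123782649, AC 101.67) and ECA11 (32846425 to 32846586, AC 104.67), and 102 wholly masked tags of at least 50 bp reached AC of 100 or more. The length limit ran through a dense range, with 28 members of exactly 50 bp (median AC 11.6) and 47 masked tags of 49 bp (median AC 10.96).

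**Figure D1:**
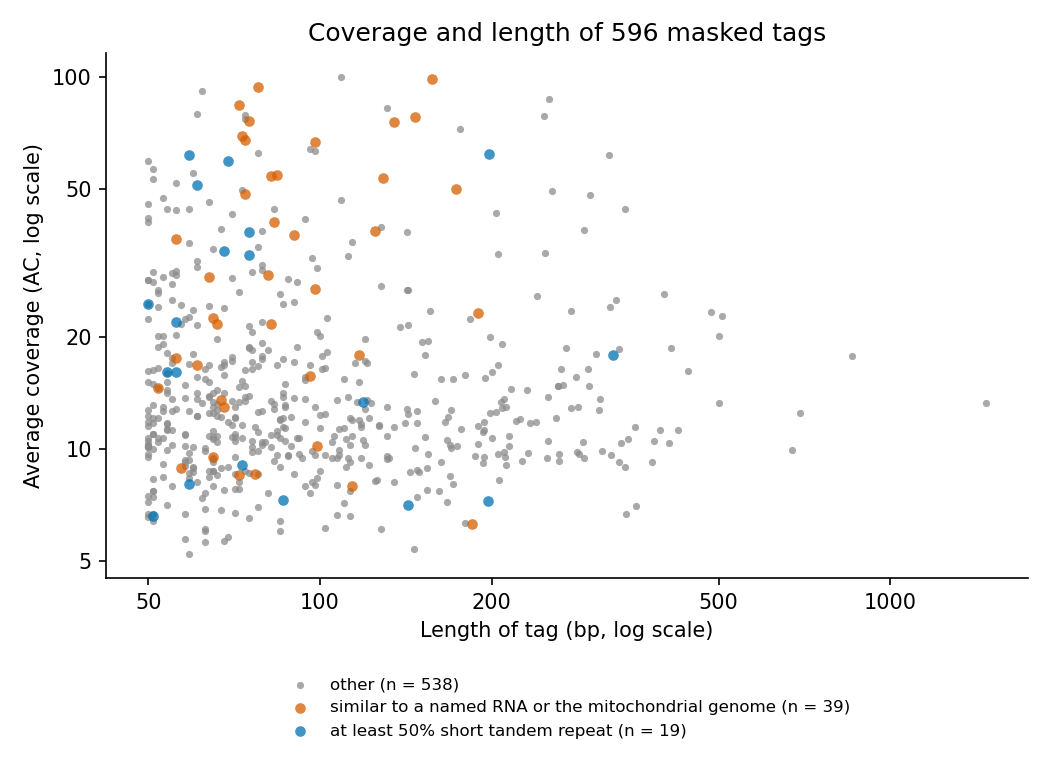
AC of each of the 596 members (y axis, log scale) against its length in bp (x axis, log scale), coloured by whether the tag resembled a named RNA or the mitochondrial genome (39 tags), was at least 50% short tandem repeat (19 tags) or neither (538 tags). The RNA-like tags lie mostly in the upper part of the range, whereas length shows no trend with AC, and the tags of over 300 bp lie mostly under AC 20.

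Similarity to a known RNA or to the mitochondrial genome was recorded for 39 members (6.54%). For 38 of them it rested on a blastn match that had 80% identity or more and spanned 40 bp or more and 50% of the shorter tag, and the other, the U6-like member with the highest AC, was itself the tag that named its family. Their median AC was 28.9, against 12.3 for the other 557 members. All naming tags but that of U6 had AC of 117.95 or more, so these members were defined mostly by resemblance to abundant tags. Whether the difference depends on that choice was not tested. Of the 34 members with AC of 50 or more, 12 were among these 39. They comprised 19 members similar to 7SK, 5 to U6, 4 to the mitochondrial genome, 3 to 18S rRNA, 2 each to U4, tRNA and the signal recognition particle RNA 7SL, and 1 each to U2 and 28S rRNA. The tags used to name the rRNA and 7SL families bear these names in the study, except for 1 of the 18S tags. That tag, and those for 7SK, U2, U4, U6 and tRNA, were recognised from the published form of these RNAs.

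The largest of these families was that of 7SK, an RNA that holds the elongation factor P-TEFb inactive. The 19 members lay on 9 chromosomes, with 3 each on ECA11, ECA13, ECA14 and ECA15, and had AC from 6.28 to 78.06 with a median of 21.7. All resembled the partly masked 332 bp tag on ECA20 (50615137 to 50615468), which had AC of 1202, at identities of 88.6% to 94.9%. AC of the ECA20 tag was 15.4 to 191 times that of the members. The 3 highest were the ECA17 member shown above (AC 78.06) and members on ECA11 at 14360987 to 14361084 (AC 66.83) and 15319923 to 15320051 (AC 53.5). These 3 all began at base 2 or 3 of the ECA20 tag. So did the ECA13 member at 34092856 (AC 17.8), and the ECA11 member at 12976541 (AC 23.15) began at base 4. AC and identity had a Spearman correlation of -0.00526 over the 19 members, which share sequence and libraries.

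Aligned with the ECA20 tag, the 19 members together covered 326 of its 332 bases, leaving only base 1 and the last 5. The members were not spread evenly. Of the 19, 14 started within the first 140 bases and 5 started after base 190, and up to 13 members overlapped between bases 56 and 72. On 2 chromosomes a pair of members lay close together in the order and orientation of a single 7SK copy. On ECA13 the members at 34092655 to 34092750 (AC 15.66) and 34092856 to 34092972 (AC 17.8) were separated by 105 bases, and the stretches they matched in the ECA20 tag by 105 bases as well. On ECA15 the members at 22876968 to 22877031 (AC 28.89) and 22877169 to 22877225 (AC 8.87) were separated by 137 bases, and their matches by 140. The members of such a pair were counted separately.

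**Figure D2:**
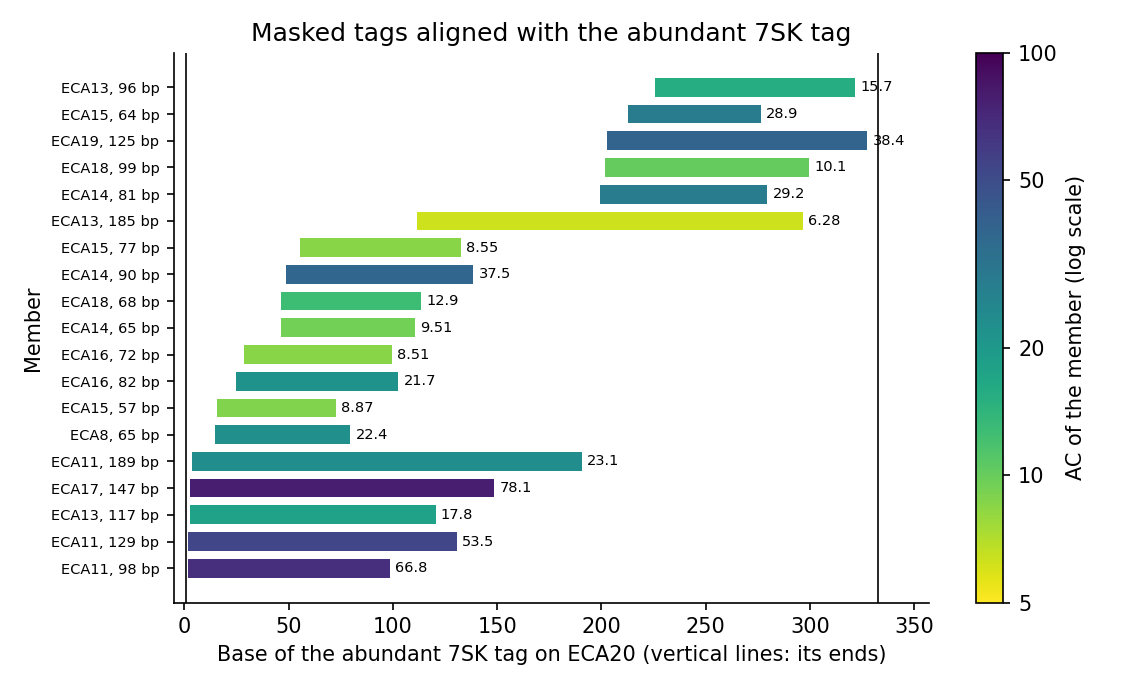
Each bar is 1 of the 19 7SK-like members, placed by its blastn alignment with the 332 bp ECA20 tag (x axis, base of that tag, with vertical lines at its ends), coloured and labelled by its AC. The 3 darkest bars, with AC of 53.5 to 78.06, begin at the first bases of the tag, as do bars with AC of 17.8 and 23.15. Bases 56 to 72 are covered by 13 members.

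The 5 members similar to U6, the RNA at the catalytic centre of the spliceosome, lay on ECA2 and ECA8 and had AC of 26.91, 21.67, 17.52, 16.78 and 14.56. AC thus differed 1.85-fold over these 5 members. A further 3 deposited tags, with AC up to 53.5, resembled them. The 2 U4-like members, on ECA16 and ECA1, had AC of 54.57 and 48.45 and were 97.4% and 97.2% identical to a partly masked tag on ECA8 with AC of 129. The U2-like member on ECA11 (20431608 to 20431742) had AC of 75.73 and was 96.3% identical over 134 bp to a tag on the same chromosome with AC of 118. For U2 and U4 the naming tag had 1.56 to 2.67 times the AC of the member, and for 7SK at least 15.4 times. The selection held members under AC 100, and the U2, U4 and 7SK naming tags had AC of 118, 129 and 1202. The lowest possible ratio was thus set in advance, and these ratios do not compare the families.

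The 2 tRNA-like members lay on ECAX at 13713071 to 13713142 (72 bp, AC 83.72) and on ECA12 at 19556894 to 19556966 (73 bp, AC 69.4). Both had the length of a tRNA, the adaptor of protein synthesis. Their best matches among the tRNA-like tags used for naming were 83.9% identical over 56 bp and 87.3% identical over 63 bp. A further tag of such form, on ECA13 at 25597956 to 25598036 (81 bp), had AC of 7.61 and was found by GTTCGA rather than by a match. RNAfold gave minimum free energies of -20.1, -29.6 and -30.9 kcal/mol for the strands shown of the ECAX, ECA12 and ECA13 tags, and 3, 3 and 4 hairpin loops. The opposite strands gave -22.2, -27.1 and -23.8 kcal/mol, so that the strand shown did not have the lower energy in each case. GTTCGA was present on either strand in 4 of the 596 members (0.671%) and in 1.97% of all 8357 tags of at least 50 bp with AC under 100, which were longer on average. It was absent from the ECA12 tag shown.

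The 28S-like member on ECA15 (AC 98.5) was 85.5% identical over 138 bp to a 28S tag on ECA1 with AC of 104507. It lay 43 bp from a masked tag with AC of 852. The 18S-like members on ECA9 (64155806 to 64155880), ECA10 (26934232 to 26934305) and ECA16 (37244539 to 37244594) had AC of 76.01, 67.45 and 36.57 and identities of 84.6% to 88.1%. The 7SL-like members on ECA14 and ECA20 had AC of 40.63 and 7.95. In these families, AC of the matching naming tag was 648 to 7104 times that of the member. The matching tags had AC of 49279 to 104507 and members were selected under AC 100, so large ratios were set in advance. The identities of the rRNA-like and 7SL-like members, 84.0% to 88.1%, lay below those of the U4-like and U2-like members.

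**Figure D3:**
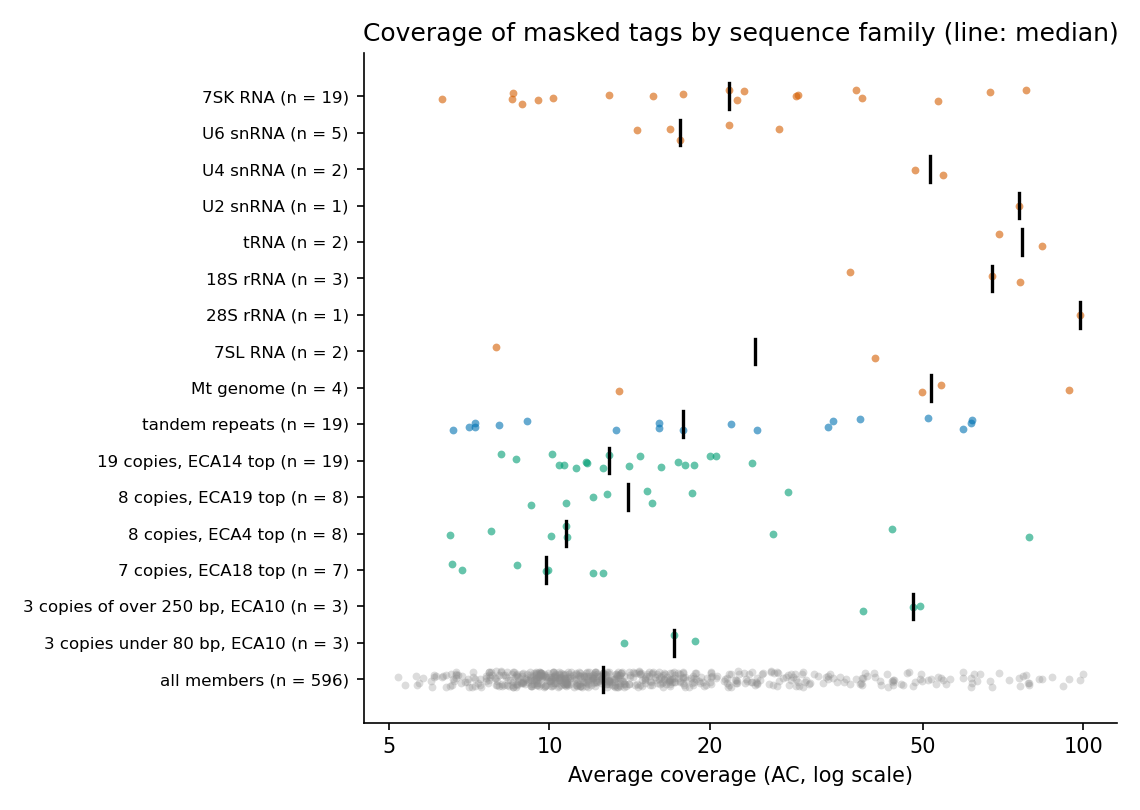
AC of the members (x axis, log scale) by sequence family (y axis), with 1 point for each tag and a black line at the family's median. The U2, U4, tRNA, 28S and 18S rows lie at AC of 36.57 or more, the 7SK row extends from 6.28 to 78.06, and the 19-copy family lies between 8.11 and 23.97.

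The 4 members similar to the mitochondrial genome lay on ECA6, ECA10, ECA17 and ECA31 and had AC of 49.82, 53.99, 93.96 and 13.51. In mammalian chromosomes such stretches are known as nuclear insertions of mitochondrial DNA. The match on ECA10 was identical over 60 bp and that on ECA6 98.8% identical over 168 bp, while those on ECA31 and ECA17 were 92.5% and 89.1% identical over 53 and 64 bp. The single mitochondrial tag had AC of 4390, which was 46.7 to 325 times that of the members. Members were selected under a limit on AC far below this value, so large ratios were set in advance. Capitals mark the matching stretch in the ECA17 and ECA10 members, each of which also held flanking bases outside the match.
Mitochondrial match, chr17:28883938-28884015, plus strand: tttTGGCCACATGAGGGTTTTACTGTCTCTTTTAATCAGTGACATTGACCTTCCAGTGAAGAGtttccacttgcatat
Mitochondrial match, chr10:54855884-54855965, plus strand: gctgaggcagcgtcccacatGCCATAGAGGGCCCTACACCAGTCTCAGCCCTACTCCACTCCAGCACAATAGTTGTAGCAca

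Short tandem repeats with units of 1 to 6 bases and at least 3 copies over 12 bases were found in 78 members and covered at least 50% of the tag in 19 (3.19%). Their AC lay between 6.6 and 61.94 (median 17.81). Repeats of AC or its complement TG formed the main unit in 7 of the 19, and AG or its complement in 2. Such tags made up 3.93% of the partly masked tags (51 of 1298) and 1 of the 6463 unmasked tags of at least 50 bp with AC under 100, and 1.23% of the short masked tags. Masking marks tandem repeats, so the selection sets part of these shares. Of the 19 members, the one with the most copies of its unit in an unbroken run was on ECA11 at 8351836 to 8352032, with 33 copies of tc and AC of 7.24. The member with the highest AC of all, the 109 bp tag on ECAX, was 47.7% tandem repeat.

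Among the 596 members, 105 (17.6%) were similar to another member, forming 23 groups of linked members, of which 12 had 3 or more members and 11 were pairs. For 456 members (76.5%) no similar deposited tag was found at these limits. The 105 had a median AC of 14.07, and the 456 a median of 12.2. The largest group held 19 members on 13 chromosomes, none of which resembled a named RNA. AC in it lay between 8.11 and 23.97 (median 12.9), and its members were 80.7% to 97.6% identical in pairs. The highest AC in this group belonged to a 322 bp tag on ECA14. A group of 8 members on ECA2, ECA8 and ECA19 had AC of 9.25 to 28.03, the highest at 9090201 to 9090291 on ECA19, and 17 further deposited tags, with AC up to 309, resembled it. A group of 7 members on 7 chromosomes had AC of 6.57 to 12.59, the highest at 45036396 to 45036454 on ECA18. A group of 8 members on 8 chromosomes was led by a 74 bp tag on ECA4 with AC of 78.95. The next values in that group were 43.81 and 26.24, and the lowest was 6.51, so AC varied 12.1-fold among similar copies. The group of 8 on ECA2, ECA8 and ECA19 is represented by an ECA8 member with AC of 15.59. Capitals mark the 12 bases held by most members of the group, namely by 5 of 8 in the first sequence and 6 of 7 in the second.
Group of 8 on ECA2, ECA8 and ECA19, chr8:14871647-14871707, plus strand: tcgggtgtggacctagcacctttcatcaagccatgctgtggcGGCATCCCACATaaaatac
Group of 7, chr18:45036396-45036454, plus strand: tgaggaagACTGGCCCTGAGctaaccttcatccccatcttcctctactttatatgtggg

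Both sets of 3 copies on ECA10 were close in coverage. In the first, members of 255, 298 and 290 bp at 26217805, 26324910 and 26287698 had AC of 49.36, 47.93 and 38.65, and were 96.1% to 97.6% identical. A second set of 3 on ECA10, at 26773572, 27289607 and 27379706, had AC of 18.77, 17.11 and 13.77. These members shared 32 bases without a difference (capitals), and a partly masked tag of the same region that resembled them had AC of 75.99. AC varied 1.28-fold within the first set and 1.36-fold within the second. Similar ranges occurred in groups on several chromosomes, with 1.31-fold among 3 members on 2 chromosomes and 1.92-fold in the group of 7.
ECA10 copy, chr10:26773572-26773646, plus strand: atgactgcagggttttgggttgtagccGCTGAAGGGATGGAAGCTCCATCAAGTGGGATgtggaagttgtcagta
ECA10 copy, chr10:27289607-27289682, minus strand: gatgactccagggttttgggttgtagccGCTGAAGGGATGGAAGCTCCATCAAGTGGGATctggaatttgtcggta
ECA10 copy, chr10:27379706-27379779, minus strand: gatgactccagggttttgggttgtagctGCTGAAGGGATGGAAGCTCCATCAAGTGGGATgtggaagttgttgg

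Reads of 50 bases cannot be placed uniquely where the same 50 bases occur more than once. Such a stretch was shared exactly with another deposited tag by 26 members (4.36%), against 6.70% of 1298 partly masked and 3.09% of 6463 unmasked tags of at least 50 bp with AC under 100. Median length was 82.5 bp in the members, 208 bp in the partly masked and 122 bp in the unmasked tags. The shares were not adjusted for length, and a longer tag holds more such stretches. Leaving out matches to the mitochondrial tag, 25 members made 31 such links, 8 of them between 2 members, and in 25 of the 31 the AC of the 2 tags was within 2-fold, with a median fold of 1.27 and a maximum of 11.9. The ECA12 tRNA-like member had AC of 69.4, and so had both tags with which it shared 50 bases, on ECA11 (51006042 to 51006114) and ECA12 (19553506 to 19553578). The ECAX tRNA-like member had 83.72 against 80.13 for a tag on ECA20. Over all 19257 tags, 35 sets with 81 tags had an identical sequence throughout, none of them members. In 32 of these 35 sets AC was equal to the last digit given, and the largest difference in the other sets was 2.999-fold. The study's methods state that reads with several similarly scoring alignments were removed. How tags of identical sequence came to hold equal AC is not given in the sources used here. Where copies share read-length stretches, AC cannot be assigned to a single locus.

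Among the 10 members with the highest AC, those on ECA15, on ECA17 at 28883938 and on ECAX at 13713071 resembled a named RNA or the mitochondrial genome, the ECA4 member led a group, and the member with the highest AC was the partly tandem-repeated tag on ECAX. The other 5 lay on ECA1 (183218540 to 183218601, AC 91.39), ECA18 (75985222 to 75985473, AC 87.13), ECA8 (68059175 to 68059305, AC 82.54), ECA23 (13031007 to 13031067, AC 79.15) and ECA13 (4960559 to 4960805, AC 78.57). Their GC content ranged from 29.5% on ECA23 to 65.2% on ECA13. The ECA23 member held an unbroken run of 24 bases of the unit AAAG, shown in capitals, and the ECA1 member held no short tandem repeat.
ECA1 member, chr1:183218540-183218601, plus strand: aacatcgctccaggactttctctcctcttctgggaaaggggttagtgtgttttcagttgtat
Tetranucleotide run, chr23:13031007-13031067, plus strand: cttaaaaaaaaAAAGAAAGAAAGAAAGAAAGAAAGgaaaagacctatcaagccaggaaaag

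The 5 longest members had AC of 9.89 to 22.67. The longest, 1470 bp on ECA12 (10181283 to 10182752), had AC of 13.26, and the next, 857 bp on ECA7 (45754516 to 45755372), had 17.75. They were followed by 695 bp on ECA1 (1728318 to 1729012, AC 12.49), 673 bp on ECA24 (46502642 to 46503314, AC 9.89) and 507 bp on ECA1 (135956044 to 135956550, AC 22.67). Their GC content was 37.5% to 42.4%, below the median of the members. The longest stretch without a stop codon in any of 6 reading frames was 318 bases in the ECA12 tag and 537 bases (62.7% of its length) in the ECA7 tag. In 4 of the 5 another tag lay within 300 bp, at distances of 4, 4, 11 and 293 bp, and AC of these neighbours was 9.44 to 19.47.

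Median GC content of the members was 47.9% (quartiles 41.0% and 52.9%), against 50% in the 1298 partly masked and 52.4% in the 6463 unmasked tags of at least 50 bp with AC under 100, and 40% in the 2763 masked tags under 50 bp. The ratio of observed to expected CpG dinucleotides was 0.25 in the members, 0.235 in the short masked tags, 0.329 in the partly masked and 0.408 in the unmasked tags. Masking itself selects sequence, so these differences were not tested. The polyadenylation signal AATAAA was present on either strand of 48 members (8.05%), of 17.8% of the longer partly masked tags, of 6.79% of the unmasked and 5.10% of the short masked tags. Median length differed as well, with 208 bp in the partly masked and 122 bp in the unmasked tags. Counted per kb over either strand, AATAAA occurred 0.731 times in the members and 0.719 times in the partly masked tags. The rate was 0.457 in the unmasked and 1.89 in the short masked tags. Median AC was close in the longer classes, at 12.62 in the members, 13.71 in the partly masked and 12.42 in the unmasked tags.

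**Figure D4:**
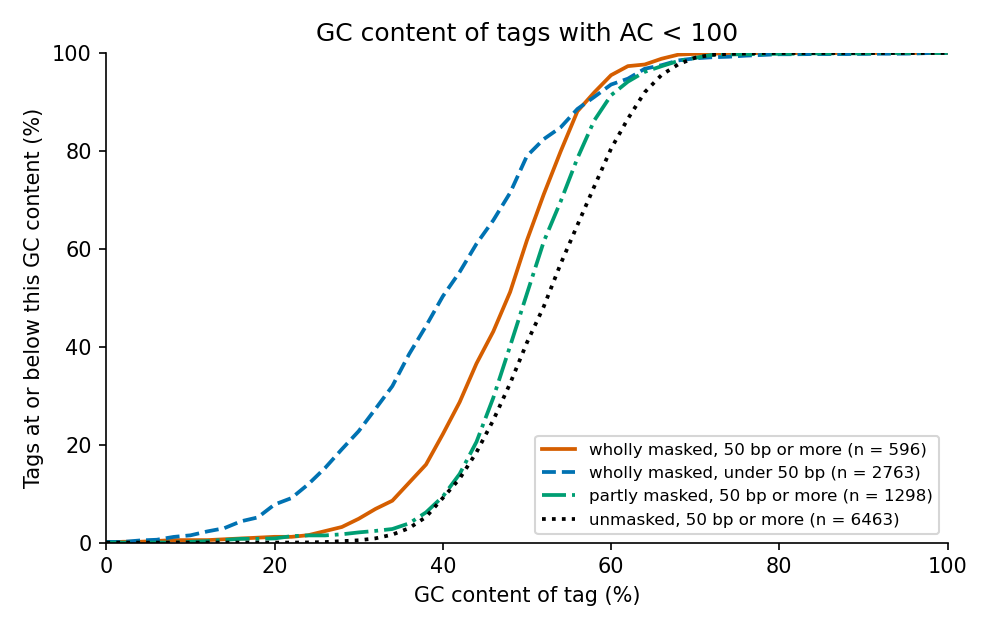
Cumulative share of tags (y axis, %) by GC content (x axis, %) for the 596 members and for the short masked, partly masked and unmasked tags with AC under 100. At its median of 47.9% the curve of the members lies between those of the short masked tags (median 40%) and of the other longer tags (medians 50% and 52.4%), and it crosses that of the short masked tags at higher GC content.

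Distance to the nearest tag is given without a test, since tags are not replicates. Its median was 10369 bp for the members, against 1443 bp for the unmasked, 2293 bp for the partly masked and 57745 bp for the short masked tags. Another tag lay within 1 kb of 144 members (24.2%), 43.2% of the unmasked, 41.2% of the partly masked and 2.14% of the short masked tags. The nearest tag of these 144 members was wholly masked in 51, partly masked in 54 and unmasked in 39, it was another member in 38, and in 6 it had AC of 100 or more. Whether these members belong to longer transcripts was not tested.

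Every chromosome held members, from 2 on ECA29 to 53 on ECA10. As a share of the tags of at least 50 bp with AC under 100, they ranged from 2.84% on ECA11 (31 of 1090 tags) to 28.6% on ECA8 (26 of 91 tags), with a median of 8.79% over the 32 chromosomes. ECA26 (23.8%, 10 of 42 tags) and ECA28 (17.6%, 13 of 74 tags) followed ECA8. Chromosomes with more longer tags had a lower share of masked ones, with a Spearman correlation of -0.492 over 32 chromosomes, in which the number of longer tags is also the denominator of the share. Windows of 1 Mb with members held 1 member in 336 cases and 2 in 74, and the most were the 7 and 6 members in the adjoining windows of ECA10 from 26 to 28 Mb and the 6 members on ECA12 from 10 to 11 Mb. Both sets of ECA10 copies described above lay between 26 and 28 Mb.

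**Figure D5:**
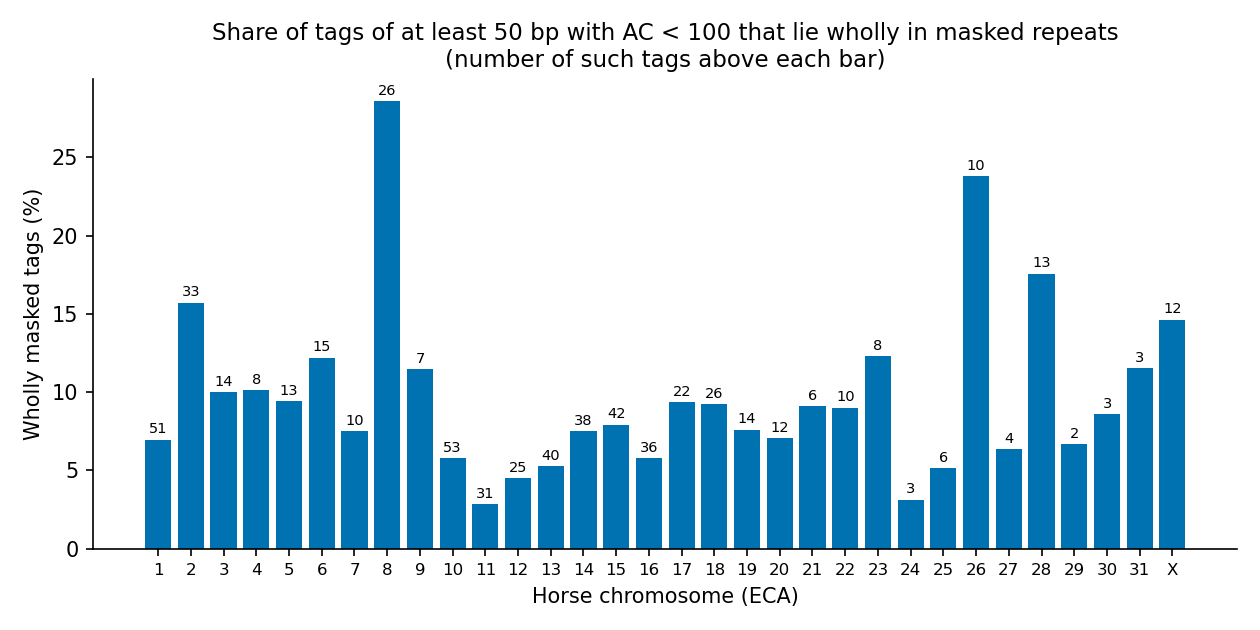
Members as a percentage of all tags of at least 50 bp with AC under 100 (y axis) on each horse chromosome (x axis), with the number of members above each bar. ECA8 (28.6%) and ECA26 (23.8%) have the highest shares and ECA11 (2.84%) the lowest, on numbers of members between 2 and 53.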

How the data were processed

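Total RNA of sperm from 2 stallions, 1 group, was sequenced by the authors in single reads of 50 bases, which were aligned with EcuCab2 (NovoalignCS). Reads left unaligned were shortened and tried again, reads with several similarly scoring alignments were stated to be removed, and alignments were clustered into tags. The deposited value is the average coverage (AC), a signal scaled by the authors to the sample with fewer reads, with 1 value and the genomic sequence for each tag. Read counts and per-sample values were not used here, so that no test was made, no AC has a replicate error or counting interval, and the depth behind a tag is unknown. For tags looked up among the values per stallion in the study's supplement, AC equalled the higher value, which was not checked for all tags.

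Members were selected by position, length, letter case and AC. For similarity, blastn 2.17.0 was run with its low-complexity filter on, a word size of 11 and an E value limit of 1e-05, and members with a match of at least 80% identity over 40 bp and 50% of the shorter tag were linked into groups. Displayed differences came from local alignment (Biopython 1.88) and folds from RNAfold 2.7.2. The code was tested on simulated data. The reference gene table is of another assembly and was not used. Tags named in the text are the 10 with the highest AC, the 5 longest, the leading members of the largest groups, those with most tandem copies and those at the limits. RNA-like members and copies on ECA10 were chosen after their values were seen. Members and lists were chosen with earlier results of these data known. Some sequences, and results that need them, are not reported here.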

Additional observations from a re-analysis of the deposited data

How the results depend on the processing

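Of 37 alternatives, 24 left the value within 1.5-fold (counts) or within the 95% order-statistic interval of the median over tags, and 13 did not. With a length of at least 100 bp there were 230 members in place of 596, with medians of 12.035 for AC, 169 bp for length and 50% for GC content. With at least 60 bp median length was 98 bp and median GC content 48.8%. Median AC was 13.8 with no coverage limit and 15.3 with AC of at least 10. At 90% identity, 58 members in place of 105 were similar to another member and 28 in place of 62 to a tag with AC of 100 or more. Tandem repeats over at least 80% of the tag were found in 3 members in place of 19. Another tag lay within 100 bp of 63 and within 10000 bp of 295 members, in place of 144 within 1 kb. Joining members within 100 bp gave 588 loci. With the low-complexity filter off, chosen after seeing the data, 137 members were similar to another member and 81 to a tag with AC of 100 or more.

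Results without either stallion were not calculated, because the deposited table holds 1 value for each tag and the values for each stallion in the study's supplement were not used here. No paired analysis was possible because the labels give 1 group and the deposited table has no column for each sample. The depth behind a tag is unknown, and the lowest AC in the table is 2. Family names rest on resemblance to other tags of the same table.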
